A study of Drosophila melanogaster with 6 samples.

Results

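Transfer RNA genes are short genes that RNA polymerase III transcribes. Their promoter lies inside the gene, in an A box and a B box that the factor TFIIIC binds. TFIIIB is then placed just upstream of the gene and recruits the polymerase, and transcription ends at a run of T after the gene. Eukaryotic genomes hold many identical copies of most tRNA genes, alone or in clusters, and an open stretch of chromatin around a copy is commonly used as a sign that it is in use in a tissue.

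The genes described here are all nuclear genes that the annotation of the dm6 assembly gives as tRNA, or names with a symbol that starts with tRNA:, on the large chromosome arms, 4 and X. These are 295 of the 18164 genes on those chromosomes, of which 290 are tRNA genes and 5 are tRNA pseudogenes. Arm 2L carries 41 of them, 2R 100, 3L 49, 3R 79 and X 26, and chromosome 4 carries none. A gene with no other tRNA gene within 2 kb is called isolated here, which leaves 91 isolated genes and 204 genes in 70 clusters of 2 to 8 genes. Accessibility was measured by ATAC-seq, in which the Tn5 transposase cuts open chromatin, in wing imaginal discs, the larval tissue that forms the wing. A gene was counted as having a peak in a library where a peak of that library overlapped the gene or the 200 bp on either side by at least 1 bp, and where several did, the peak with the highest fold enrichment stood for the gene.

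The study had 3 genotypes with 2 libraries each. In *tubGal80*>*Cdk1-i* discs RNA interference against Cdk1, the kinase that drives entry into mitosis, was expressed, and according to the methods of the study a pair of UAS lines was combined for it. In *tubGal80*>*fzr* discs the gene *fzr*, an activator of the anaphase promoting complex that turns mitotic cycles into endocycles, was overexpressed. Control discs expressed GFP (*tubGal80*>*GFP*, called GFP control). All 3 genotypes carried the same *tub-Gal4*, *tub-Gal80* driver, with the temperature-sensitive allele Gal80ts. The driver acts in all cells of the animal and is held off by Gal80ts at 17 °C, where the larvae spent 7 days, and released at 31 °C, where they spent the last 2 days. Each library came from many pooled whole discs, so the muscle precursors attached to a disc are included. Groups follow the sample labels. For 4 of the lists the deposited name carries the other of the 2 tested genotypes, so each difference between them could be exchanged.

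The lists held 27119 to 36715 peaks. They give no read counts, so depth is unknown and no counting error can be given. The shortest peak was 161 and 160 bp long in the *Cdk1-i* libraries, 143 and 197 bp in the *fzr* libraries, and 169 and 166 bp in the GFP control libraries. The second *fzr* library stood apart, with the fewest peaks (27119), the longest shortest peak and the largest median width over all peaks (442 bp, against 306 to 373 bp in the other 5). Of 7 genes that mark the wing disc epithelium, 6 had a peak at their 5′ end in all 6 lists, and *sd* had one in 2 lists. The fat body and salivary gland markers had none in any list. Among the markers of disc myoblasts, *zfh1* and *htl* had a peak in all 6 lists and *Him* in 4. Among the haemocyte markers, *srp* had one in 6 lists, *Hml* in 1 and *NimC1* in none, and of the photoreceptor and neuron markers *ninaE* had one in 4 lists and *elav* in the 2 *fzr* lists.

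The sequences below show what the results turn on, which is that copies of 1 sequence differed in whether they had a peak. The first gene shown, on 3R, had the highest mean rank of all. The genes tRNA:Asp-GTC-1, tRNA:Val-CAC-2 and tRNA:Pro-TGG-1 are shown once each, since all their copies are identical, and the 40 bases before some of their copies follow. These sets were chosen after their values had been seen. Sequences run 5′ to 3′ on the strand of the gene and were read from the RefSeq sequence of the dm6 assembly. Capitals mark the B box in the genes and the letters TTTGG in the bases before them.
tRNA:Leu-CAA-2-3 gene: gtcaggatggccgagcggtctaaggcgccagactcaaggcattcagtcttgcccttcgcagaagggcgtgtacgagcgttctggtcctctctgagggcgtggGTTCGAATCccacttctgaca
tRNA:Asp-GTC-1-4 gene: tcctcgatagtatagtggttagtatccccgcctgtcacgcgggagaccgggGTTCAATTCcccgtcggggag
before tRNA:Asp-GTC-1-4, peak in 6 lists: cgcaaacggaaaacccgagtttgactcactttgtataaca
before tRNA:Asp-GTC-1-5, peak in 6 lists: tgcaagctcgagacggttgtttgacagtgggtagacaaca
before tRNA:Asp-GTC-1-6, peak in 6 lists: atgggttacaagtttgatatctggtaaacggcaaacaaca
before tRNA:Asp-GTC-1-7, peak in no list: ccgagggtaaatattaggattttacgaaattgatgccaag
before tRNA:Asp-GTC-1-8, peak in no list: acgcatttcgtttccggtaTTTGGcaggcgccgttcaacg
before tRNA:Asp-GTC-1-9, peak in no list: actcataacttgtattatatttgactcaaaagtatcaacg
tRNA:Val-CAC-2-4 gene: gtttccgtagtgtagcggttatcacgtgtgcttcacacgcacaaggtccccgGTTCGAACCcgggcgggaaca
before tRNA:Val-CAC-2-4, peak in 6 lists: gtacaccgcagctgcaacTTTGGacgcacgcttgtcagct
before tRNA:Val-CAC-2-6, peak in 4 lists: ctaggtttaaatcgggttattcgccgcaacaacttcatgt
before tRNA:Val-CAC-2-1, peak in no list: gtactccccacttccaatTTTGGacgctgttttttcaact
tRNA:Pro-TGG-1-5 gene: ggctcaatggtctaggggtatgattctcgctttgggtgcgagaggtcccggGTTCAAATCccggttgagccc
before tRNA:Pro-TGG-1-5, peak in 6 lists: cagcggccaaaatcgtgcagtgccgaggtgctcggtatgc
before tRNA:Pro-TGG-1-4, peak in 6 lists: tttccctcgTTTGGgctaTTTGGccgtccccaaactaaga
before tRNA:Pro-TGG-1-3, peak in no list: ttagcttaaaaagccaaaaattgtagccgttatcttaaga

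Between 39.0% and 48.8% of the tRNA genes had a peak. The counts were 121 and 129 of 295 genes in the *Cdk1-i* libraries, 134 and 144 in the *fzr* libraries, and 115 and 130 in the GFP control libraries. These are 41.0% and 43.7% of the genes in *Cdk1-i* discs, 45.4% and 48.8% in *fzr* discs, and 39.0% and 44.1% in control discs. In each library the share was higher than that of the 5′ ends of the 13945 protein-coding genes, taken as windows of the same length of 473 bp, of which 27.3% to 30.2% had a peak. Over the 6 libraries the share averaged 43.7% for tRNA genes and 28.9% for coding 5′ ends, with a difference of 14.7 percentage points ± 2.47 (SD of the 6 differences), positive in 6 of 6 libraries. The two-sided exact permutation test over the signs of the 6 differences gave p = 0.031, the smallest it allows, and 0.104 after Benjamini-Hochberg adjustment over the 10 tests made. With so few libraries no adjusted p of these 10 tests could be below 0.0781, whatever the data. All 6 libraries scored the same genes, so this test and its SD describe agreement between libraries and not variation among genes. Of all windows of 473 bp tiled along the chromosomes, 19.9% to 23.5% had a peak.

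**Figure D1:**
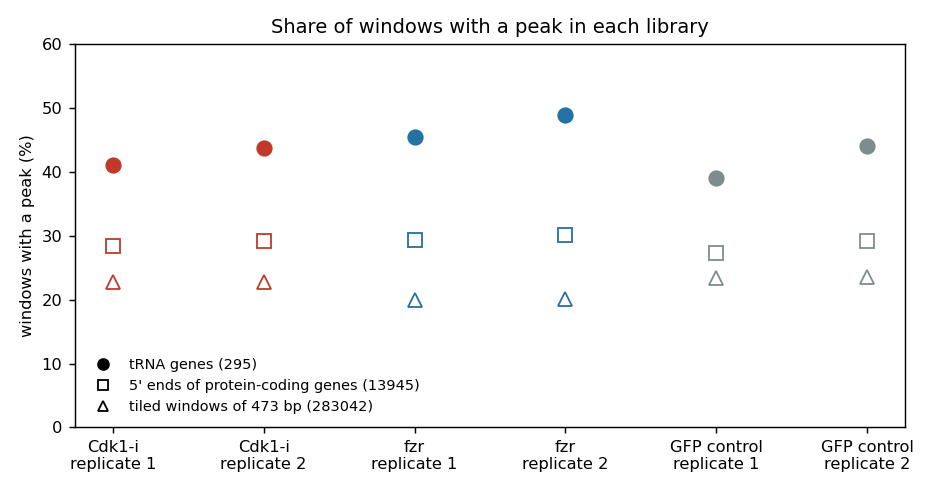
Share of windows with a peak (%, vertical axis) in each of the 6 libraries (horizontal axis). Filled circles are the 295 tRNA genes, squares the 13945 coding 5′ ends and triangles the 283042 tiled windows. The circles lie between 39.0% and 48.8% and above the squares in every library.

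Where a tRNA gene had a peak, the peak usually stood high in its list. Each peak was ranked by its fold enrichment over the local background, a ratio the authors deposited, and the rank was written as a percentile of its own list, with 100 for the strongest peak. The median percentile of the tRNA genes with a peak was 89.6 and 88.4 in *Cdk1-i* discs, 88.2 and 86.3 in *fzr* discs, and 87.0 and 88.9 in control discs. Between 42.5% and 49.6% of these genes were at or above percentile 90, and 11 to 18 genes per library lay below percentile 50. Coding 5′ ends with a peak had medians of 79.4 to 86.3. In bulk discs, a peak open in fewer cells and a peak less open in each cell cannot be told apart.

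Most genes had a peak either in every list or in none. A peak was present in all 6 lists at 96 genes (32.5%), in 1 to 5 lists at 69 genes (23.4%) and in no list at 130 genes (44.1%). Among coding 5′ ends, 18.5% had a peak in all 6 lists and 58.4% in none. The number of tRNA genes in all 6 lists depended on the window. It was 76 with the gene alone, 50 where the summit had to lie in the window, and 135 with a flank of 500 bp. The mean share of tRNA genes with a peak was 38.2%, 30.3% and 58.9% under these rules. At some of the 96 genes the peak lay only in the flank, as at tRNA:Val-CAC-2-3, 132 to 160 bp away. The counts by family, identical set and letters below use flanks of 200 bp. Of the 18 genes with a peak in a single list, 14 had it in the second *fzr* library, 2 in the second *Cdk1-i* library and 2 in the first *fzr* library. Of the 12 genes that lacked a peak in a single list, 8 lacked it in the second *fzr* library and 4 in the first control library. The libraries of 1 genotype differed from each other at 20 genes in *Cdk1-i* discs, at 40 in *fzr* discs and at 31 in control discs.

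The 5 genes with the highest mean percentile were picked for that value and so stood near the top of every list. tRNA:Leu-CAA-2-3 (FBgn0051143, 3R:23601333-23601455, minus strand), which the annotation gives with an intron and which reads leucine codons, is isolated and intergenic. Its peak had a percentile of 99.3 and 99.8 in *Cdk1-i* discs, 99.4 and 99.9 in *fzr* discs, and 99.7 and 99.9 in control discs, at a fold enrichment of 20.3 and 22.5 in *Cdk1-i* discs, 21.8 and 16 in *fzr* discs, and 19.3 and 18.4 in control discs. The summit of its peak, the position of highest signal, lay between −8 and 4 bp from the 5′ end of the gene in 5 libraries and at −62 bp, which is upstream, in the first control library. tRNA:Ala-AGC-2-8 (FBgn0051580, 3R:17646683-17646755, minus strand), an alanine gene in a cluster of 4, stood at 99.7 and 99.9 in *Cdk1-i* discs, 99.9 and 99.4 in *fzr* discs, and 97.9 and 99.0 in control discs, with a narrow peak of 225 to 247 bp. tRNA:Pro-TGG-1-5 (FBgn0051228, 3R:18628467-18628538, minus strand) lies within the gene *qin*, and its proline sequence is printed above. It stood at 98.8 and 98.8 in *Cdk1-i* discs, 97.9 and 98.5 in *fzr* discs, and 98.9 and 99.2 in control discs. Its summit lay at −57 bp in the first control library and at −63 bp in the other 5 libraries. The serine gene tRNA:Ser-TGA-2-1 and the phenylalanine gene tRNA:Phe-GAA-1-4, both on 2R, had percentiles of 97.2 to 99.2 in all 6 lists.

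The summits of many tRNA peaks lay just before the gene. At the 91 isolated genes the peak can be set against 1 tRNA gene, though 47 of them lie within a protein-coding gene. Positions of the summit of isolated genes were taken from the 5′ end, with negative values upstream. The median position was −43.5 and −41.5 bp in *Cdk1-i* discs, −50.5 and −46 bp in *fzr* discs, and −57 and −31 bp in control discs. Of the isolated genes with a peak, 43.6% to 75% had the summit in the 100 bp upstream and 0% to 10.3% within the gene. Over all genes with a peak, 42.4% to 61.2% had it in the 100 bp upstream and 6.09% to 10.7% within the gene. The share in the 100 bp upstream was lowest in the second *fzr* library in both sets. In that library 60.4% of the genes with a peak had its summit in the window at all, against 69.0% to 75.4% in the other 5. Of the 295 genes, 238 have identical copies, and a read that falls wholly inside such a gene cannot be assigned to 1 copy without its mate. The effect of this on the position of summits was not tested.

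All 22 kinds of tRNA, counted by amino acid with initiator methionine and selenocysteine apart, are in the set, in 45 families by anticodon. Of these families, 37 had a gene with a peak in all 6 lists and 29 had both such a gene and a gene with a peak in no list. All genes of 4 small families had a peak in all 6 lists, namely the 3 tRNA:Ala-CGC, 2 tRNA:Ala-TGC, 2 tRNA:Ile-TAT and 2 tRNA:Ser-TGA genes. Histidine genes had a peak most often, with 5 of 6 in all 6 lists, and the sixth, a pseudogene, in 1 list. They were followed by tyrosine with 7 of 10, isoleucine with 8 of 12 and alanine with 11 of 17. At the other end, lysine had 1 of 19 genes in all 6 lists and 14 in none, arginine 2 of 26 and 14, glutamate 3 of 21 and 15, and asparagine 0 of 10 and 6. None of the 6 tRNA:Lys-TTT genes was in all 6 lists, and 5 of them were in none. Genes of 1 family share clusters and sequence, so these counts are not independent.

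**Figure D2:**
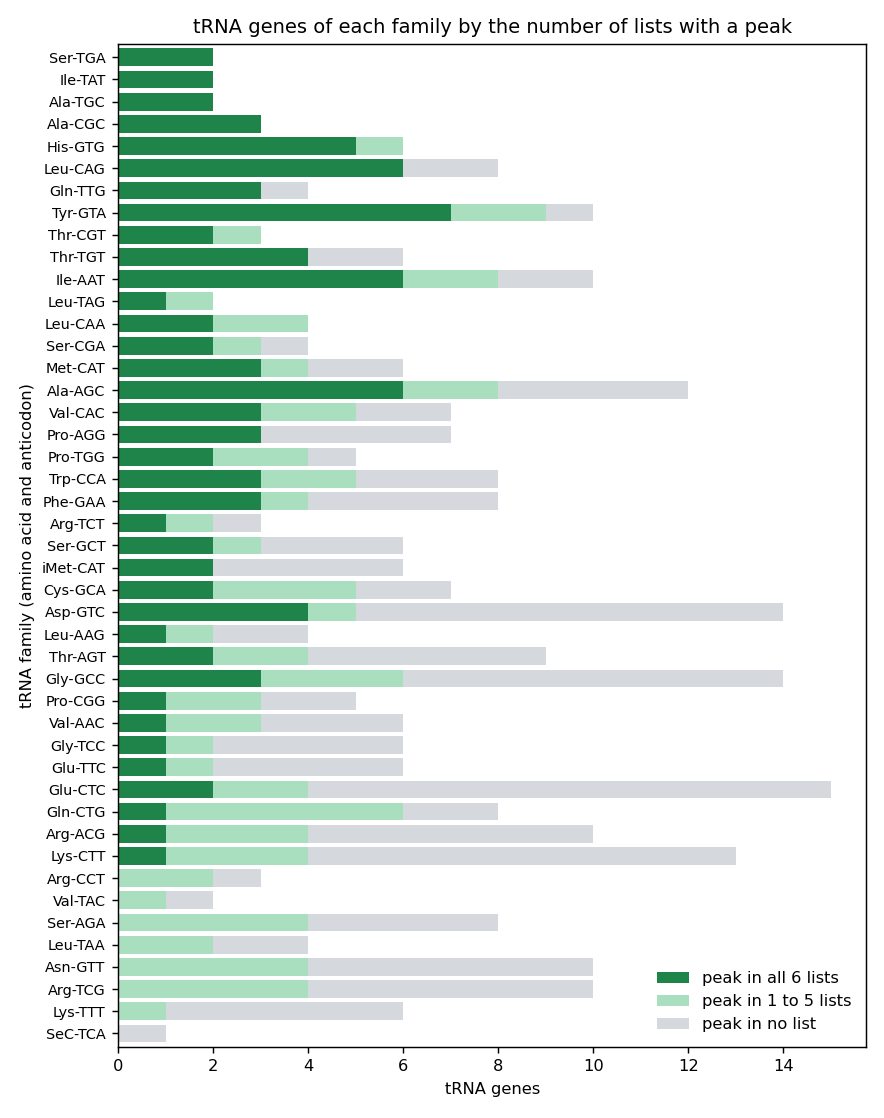
Number of tRNA genes (horizontal axis) in each of the 45 anticodon families (vertical axis), split into genes with a peak in all 6 lists, in 1 to 5 lists and in no list. Families are ordered by the share of their genes in all 6 lists, and 8 families have no such gene.

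Initiator methionine tRNA starts every protein, and selenocysteine tRNA reads a recoded stop codon. Of the 6 initiator genes, 2 had a peak in all 6 lists and 4 in none. tRNA:iMet-CAT-1-4 and tRNA:iMet-CAT-1-5 are neighbours on 3L (3L:14673942-14674013 and 3L:14674344-14674415), on opposite strands within *ome*, and 1 peak reached both. This peak had a percentile of 93.4 and 95.2 in *Cdk1-i* discs, 94.8 and 98.2 in *fzr* discs, and 94.9 and 98.5 in control discs, and the ranges of the genotypes overlapped. The identical copy tRNA:iMet-CAT-1-3, also on 3L, had its nearest peak 274 to 356 bp away, outside the 200 bp counted. The remaining 3, all on 2R, had no peak in any list, and for tRNA:iMet-CAT-2-1 the nearest peak lay 216 to 397 bp away. The only selenocysteine gene, tRNA:SeC-TCA-1-1, had none either. The nearest peak to tRNA:SeC-TCA-1-1 lay 881 to 1059 bp away.

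Identical genes differed in whether they had a peak. The 295 genes have 100 distinct sequences, 43 of them with 2 or more copies. In 27 of these 43 sets, 1 or more copies had a peak in all 6 lists and 1 or more in none, and of the 181 genes in these 27 sets 61 were in all 6 lists and 84 in none. Every copy was in all 6 lists in 2 sets and in no list in 6 sets. A read of 50 bases that falls wholly inside such a gene cannot be assigned to 1 copy without its mate. For most copies, however, the larger part of the window is unique. Of the words of 50 bases in the window, the median gene had 93.6% found once in the genome among the genes in all 6 lists and 92.8% among those in none.

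Aspartate tRNA genes, of which 12 are identical to the sequence printed above, show this split. tRNA:Asp-GTC-1-4 and tRNA:Asp-GTC-1-5 (2L:8541552-8541623 and 2L:8541761-8541832), a pair that points apart, shared a peak of 226 to 289 bp in all 6 libraries. Its percentile was 92.8 and 94.2 in *Cdk1-i* discs, 96.6 and 92.4 in *fzr* discs, and 96.4 and 95.4 in control discs. tRNA:Asp-GTC-1-6 (2L:8620028-8620099), isolated within the gene *Sema1a*, stood at 72.4 and 82.2 in *Cdk1-i* discs, 75.8 and 89.3 in *fzr* discs, and 77.3 and 79.8 in control discs. tRNA:Asp-GTC-1-10 had a peak in the second *fzr* library alone, at percentile 17.0, and the other 8 copies had none in any list.

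Valine genes of the second set are 6 copies on 3R. tRNA:Val-CAC-2-4 (3R:7475903-7475975) had a percentile of 74.1 and 76.4 in *Cdk1-i* discs, 76.8 and 77.6 in *fzr* discs, and 71.3 and 81.5 in control discs. tRNA:Val-CAC-2-1 and tRNA:Val-CAC-2-2, which lie together near 3R:7451297-7452132, had no peak in any list, and tRNA:Val-CAC-2-3 and tRNA:Val-CAC-2-5 had one in all 6. Of the 5 identical proline genes tRNA:Pro-TGG-1, 2 had a peak in all 6 lists, 2 in 4 or 5 lists and tRNA:Pro-TGG-1-3 in none. tRNA:Pro-TGG-1-4 shared its peak of 291 to 309 bp with tRNA:Ala-AGC-2-6, at percentiles of 79.2 to 91.2.

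Genes with and without peaks mostly carried the same B box and terminator letters. The A box was not searched, and identical copies have the same letters within the gene by definition. The B box letters GTTCNANNC, searched on both strands of each window, were in 94.2% of tRNA windows and in 16.05% of coding 5′ windows of the same length. On the strand of the gene they lay within 274 of 295 tRNA genes, in 87 of 96 genes in all 6 lists and in 120 of 130 genes in none. A run of 4 T within 50 bp after the gene was present at 95 of the 96 genes and at all 130. The 50 bases before the gene had a median of 55% A or T at the genes in all 6 lists and of 62% at those in none, against 56% at coding 5′ ends. Of the genes in all 6 lists 39.6% lay within a protein-coding gene, and of those in none 52.3%. These shares are descriptions of sets formed by their peaks and were not tested.

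The largest clusters showed the same split by place. The cluster with the most genes, 8 within 3734 bp at 2R:19725620-19729353, holds 2 initiator methionine genes, 5 glutamate genes and a glutamate pseudogene, and none had a peak in any list. The peak nearest to its first gene lay 10296 to 13921 bp away. A cluster of 7 at 2R:13430282-13432794, of 5 tRNA:Ile-AAT and 2 tRNA:Leu-CAA genes, had 5 genes in all 6 lists and 2 in 5 lists. tRNA:Ile-AAT-1-5 lacked a peak in the first control library, where the peak over its neighbours was 300 bp long, against 589 to 612 bp in the other 5. A cluster of 7 on X, at X:14014814-14017284, had a peak over its first 2 genes, tRNA:Arg-TCG-2-1 and tRNA:Ser-CGA-1-1, in 4 libraries. The peak stood at percentile 82.9 in the second *Cdk1-i* library, 88.9 and 83.2 in the *fzr* libraries, and 76.8 in the second control library, and its length there was 160, 163, 771 and 167 bp. The other 5 genes had none in any list, and for 4 of them, identical tRNA:Arg-TCG-3 copies, only 58.7% to 80.7% of the words were unique.

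Isolated genes had a peak less often than clustered genes in every library. The share was 35.2% and 37.4% of isolated genes, against 43.6% and 46.6% of clustered genes, in *Cdk1-i* discs. It was 35.2% and 42.9% against 50% and 51.5% in *fzr* discs, and 31.9% and 34.1% against 42.2% and 48.5% in control discs. Over the 6 libraries it averaged 36.1% for isolated and 47.1% for clustered genes, with a difference of −10.98 percentage points ± 2.92 (SD of the 6 differences), negative in 6 of 6 libraries (two-sided exact permutation test over signs, p = 0.031, adjusted 0.104). The peaks of isolated genes also stood lower in their lists. The median percentile averaged 80.8 for isolated and 89.1 for clustered genes, with a difference of −8.29 ± 1.58, negative in 6 of 6 libraries (the same exact test, p = 0.031, adjusted 0.104). The adjusted values are again limited by the number of libraries. All 6 libraries scored the same isolated and clustered genes. These tests and SDs thus describe agreement between libraries and not variation among genes. The median width of the peaks averaged 419 bp at isolated and 381 bp at clustered genes, which differed by less than the spread between libraries (37.8 bp ± 78.7, exact p = 0.281, adjusted 0.556). Clustered genes share peaks, with 46 to 75 genes per library on a peak shared with another gene. The rank difference was −1.52 (exact p = 0.406) where a peak had to cover at least 0.5 of the gene, and −3.60 (exact p = 0.0625) where its summit had to lie in the window.

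**Figure D3:**
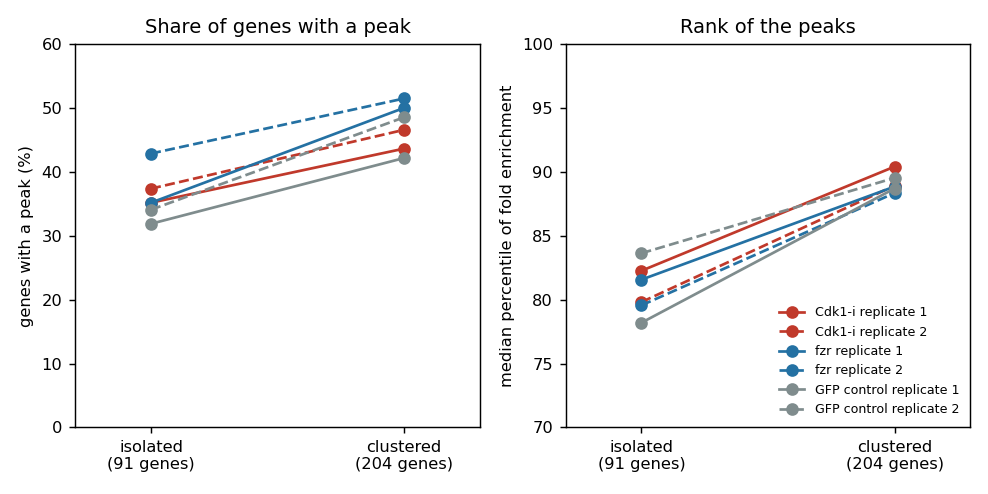
Share of genes with a peak (%, left panel) and median percentile of fold enrichment of the genes with a peak (right panel, axis from 70) for the 91 isolated and 204 clustered genes. Each line is 1 of the 6 libraries, and all 6 lines run upward from isolated to clustered in both panels.

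Between genotypes, the share of genes with a peak could not pass a test with 2 libraries against 2. *Cdk1-i* discs had a peak at 42.4% ± 1.92 of the genes and control discs at 41.5% ± 3.60 (SD, n = 2 each), with a difference of 0.847 points (two-sided exact permutation test, p = 1). *fzr* discs had a peak at 47.1% ± 2.40 of the genes, against 41.5% ± 3.60 in control discs (SD, n = 2 each), with a difference of 5.59 points. Both *fzr* libraries were above both control libraries, which with 2 libraries against 2 gives an exact p of 0.333, the smallest possible, and 0.556 after adjustment. Without the second *fzr* library the difference was 3.90 points, and without the first control library it was 3.05 points. Where a peak had to cover at least 0.5 of the gene, the differences from control discs were 3.56 points in *Cdk1-i* discs and 9.32 points in *fzr* discs (exact p = 0.333 for each, n = 2 each).

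Few genes differed from both control libraries in both libraries of a tested genotype. A gene was called gained where it had a peak in both of its 2 lists and in neither control list, and lost in the opposite case. In *Cdk1-i* discs 3 of 295 genes gained a peak (1.02%), beside 1.22% of coding 5′ ends, 3.21% of the intervals obtained by merging all peaks and 0.941% of tiled windows. In the same discs 1 gene lost its peak (0.339%), beside 0.488%, 3.28% and 1.07%. In *fzr* discs 6 genes gained a peak (2.03%), beside 0.724%, 1.06% and 0.365%, and 1 lost it (0.339%), beside 0.767%, 6.07% and 1.94%. The share gained in *Cdk1-i* discs was thus near that of coding 5′ ends. The share gained in *fzr* discs was higher than its 3 backgrounds, on 6 genes, and was not tested. The bases of these shares differ. Each merged interval holds a peak in 1 or more lists, whereas 44.1% of tRNA genes and 58.4% of coding 5′ ends have none. The counts of genes gained and lost moved with single libraries. Leaving out a library of a compared group makes the rule easier to meet for any feature. The 3 backgrounds were not counted that way, so the counts that follow have no share beside them. Genes gained in *Cdk1-i* discs numbered 7 without its first library, 5 without its second and 11 without the second control library, and genes lost numbered 2, 2 and 5, and 8 without the first control library. Genes gained in *fzr* discs numbered 20 without its first library, 10 without the first control library and 18 without the second, and genes lost numbered 10 without the first *fzr* library and 2 without the second control library.

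The genes gained in *Cdk1-i* discs had peaks of middle rank. tRNA:Met-CAT-1-4 (FBgn0052357, 3L:16349917-16349989), an elongator methionine gene within *Golgin104*, had a peak at percentile 73.2 and 68.5 in *Cdk1-i* discs, with its summit 7 and 5 bp into the gene, and none in the other 4 libraries. These peaks were 184 and 167 bp long, and the second is shorter than any peak of the first control list (169 bp). tRNA:Asn-GTT-1-3, an asparagine gene within *EcR* on 2R, had peaks of 187 and 188 bp in *Cdk1-i* discs and a peak of 187 bp in the first *fzr* library, at percentiles of 66.6 to 70.7. tRNA:Pro-CGG-3-1 on X had a peak 94 and 105 bp away at percentile 43.4 and 55.9 in *Cdk1-i* discs alone. The gene lost was tRNA:Val-CAC-2-6. Its peak stood at 84.1 and 66.9 in *fzr* discs and at 77.8 and 81.7 in control discs. In *Cdk1-i* discs the nearest peaks lay 201 and 208 bp away, just outside the window.

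Of the genes gained in *fzr* discs, tRNA:Thr-CGT-1-1 (FBgn0051480, 3R:20890698-20890769), a threonine gene in a cluster of 3, had the highest rank. Its peak stood at 92.9 and 95.2 in *fzr* discs and at 91.5 in the second *Cdk1-i* library. These peaks were 144 bp long in the first *fzr* library, 171 bp in the second *Cdk1-i* library, and 1563 bp in the second *fzr* library, where 1 peak covered the whole cluster. In control discs the nearest peaks lay 265 and 254 bp from the gene. The first *fzr* library also had short peaks 123 bp from tRNA:Gln-CTG-2-3 (159 bp long) and over tRNA:Arg-ACG-1-3 (153 bp long). The peaks of these genes in the second *fzr* library were 397 and 674 bp long. The first *Cdk1-i* library also had a peak 123 bp from tRNA:Gln-CTG-2-3, 167 bp long and at percentile 82.0. All 3 peaks of the first *fzr* library were shorter than the shortest peak of either control list. tRNA:Cys-GCA-2-1 stood at 33.5 and 79.6 in *fzr* discs, from separate peaks, since that of the first library reached the gene and that of the second lay 199 bp past it. tRNA:Gln-CTG-4-1 stood at 59.1 and 45.9, with a peak 158 bp away in the first *fzr* library and over the gene in the second. tRNA:Cys-GCA-2-1 and tRNA:Gln-CTG-4-1 each also had a peak in a *Cdk1-i* library, at 11.8 and 11.1. The sixth gene gained, tRNA:Asn-GTT-1-10, is named outside the rule for named genes, after its rank of 0.429 and 0.985 at the bottom of its lists had been seen. The only gene lost in *fzr* discs, the arginine gene tRNA:Arg-TCG-4-1 within *kkv*, had weak peaks elsewhere, at 1.33 and 0.941 in control discs and at 1.15 in the second *Cdk1-i* library.

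The 96 genes with a peak in all 6 lists had a median percentile near 90 in every library. It was 91.05 and 91.4 in *Cdk1-i* discs, 88.8 and 91.1 in *fzr* discs, and 89.6 and 90.03 in control discs. The mean of the medians differed from control discs by 1.39 in *Cdk1-i* discs (exact permutation test, p = 0.333, adjusted 0.556, n = 2 each) and by 0.111 in *fzr* discs (p = 1, exact, n = 2 each). The first of these differences became −0.156 without the second *fzr* library, which changes the genes that have a peak in all lists, and the second became −1.56. The median size of a gene's change, taken between means of 2 libraries, was 2.54 percentile points for *Cdk1-i* and 3.10 for *fzr*. Between the 2 single libraries of 1 genotype it was 1.79 in *Cdk1-i* discs, 3.13 in *fzr* discs and 3.11 in control discs. Differences between single libraries vary more than differences between means, so these values do not show whether genes moved beyond the spread of the libraries. In *Cdk1-i* discs, 26 genes had both percentiles above both control percentiles and 19 had both below, or 27.1% and 19.8%, beside 20.1% and 20.9% of the 2581 coding 5′ ends with a peak in all 6 lists. In *fzr* discs these were 16 and 23 genes, or 16.7% and 24.0%, beside 8.21% and 26.4%.

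**Figure D4:**
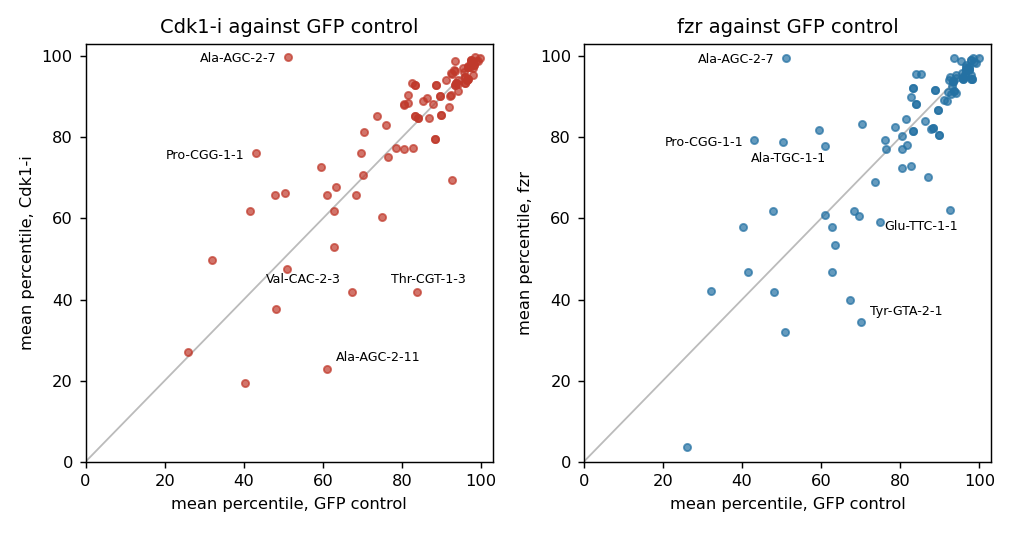
Mean percentile of the 96 tRNA genes with a peak in all 6 lists in *Cdk1-i* discs (left panel) or *fzr* discs (right panel), against the mean percentile in GFP control discs (horizontal axes). Points are genes, the line marks equal values, and the 5 genes with the largest change in each comparison are named. Most points lie near the line in the upper right corner.

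The genes with the largest changes in rank had peaks that differed between libraries in place or in length. tRNA:Ala-AGC-2-7 stood at 99.7 and 99.9 in *Cdk1-i* discs, 99.9 and 99.4 in *fzr* discs, and 3.11 and 99.0 in control discs. The strong peak is that of its neighbour tRNA:Ala-AGC-2-8 and began 195 and 193 bp from tRNA:Ala-AGC-2-7 in *Cdk1-i* discs, inside the window, whereas in the first control library it started 6 bp further away and missed the window. tRNA:Thr-CGT-1-3 stood at 46.1 and 37.8 in *Cdk1-i* discs, 96.2 and 95.2 in *fzr* discs, and 74.9 and 92.9 in control discs, with a peak of 175 bp over the gene in the first *fzr* library and a peak 157 to 177 bp away in both *Cdk1-i* libraries and the first control library. tRNA:Ala-AGC-2-11 (31.1 and 14.8 in *Cdk1-i* discs, 53.1 and 68.8 in control discs) had peaks of 194 to 258 bp in 4 libraries and of 581 and 557 bp in the second *fzr* and second control libraries. tRNA:Glu-TTC-1-1 (29.9 and 94.2 in *fzr* discs, 91.02 and 94.3 in control discs) had peaks of 408 and 368 bp in the first *Cdk1-i* and first *fzr* libraries, where its rank was lowest, and of 938 to 1014 bp in the other 4. tRNA:Ala-TGC-1-1 stood at 67.2 and 90.4 in *fzr* discs and 52.7 and 47.9 in control discs, with a peak of 1455 bp in the second *fzr* library, which also reached its neighbour tRNA:Ala-TGC-2-1, and of 440 to 485 bp in the others.

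At 3 further genes of this group the peaks of all 6 libraries overlapped each other. tRNA:Pro-CGG-1-1 (FBgn0052826, X:20025099-20025170), isolated within the dopamine receptor gene *Dop2R*, stood at 75.1 and 77.0 in *Cdk1-i* discs, 78.8 and 79.7 in *fzr* discs, and 37.6 and 48.4 in control discs. Its peaks began within 200 bp of each other and were 469 to 700 bp long. They reached the gene in *Cdk1-i* and *fzr* discs and ended 17 and 8 bp before it in control discs. Both *Cdk1-i* and both *fzr* libraries were above both control libraries. tRNA:Tyr-GTA-2-1 (FBgn0052525, X:21304713-21304820), within *Abca3*, stood at 71.9 and 69.3 in *Cdk1-i* discs, 37.3 and 31.4 in *fzr* discs, and 68.4 and 71.9 in control discs. Its peak reached the gene in *Cdk1-i* and control discs and lay 94 and 91 bp from it in *fzr* discs. tRNA:Val-CAC-2-3 stood at 44.4 and 39.1 in *Cdk1-i* discs, 39.9 and 40.1 in *fzr* discs, and 78.2 and 56.4 in control discs, with a peak 132 to 160 bp from the gene. No test was made on single genes chosen for their change.

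Peak widths differed more between libraries than between genotypes. The median width of the peaks at tRNA genes was 346 and 334 bp in *Cdk1-i* discs, 307 and 599 bp in *fzr* discs, and 318 and 423 bp in control discs. The difference from control discs was −30.75 bp in *Cdk1-i* discs and 82.5 bp in *fzr* discs (exact p = 1 for each, n = 2 each), and that of *fzr* was −63.5 bp without the second *fzr* library. The second *fzr* library had the widest peaks at tRNA genes, up to 1865 bp, and up to 5 genes on 1 peak, against up to 2 or 3 in the other libraries.

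**Figure D5:**
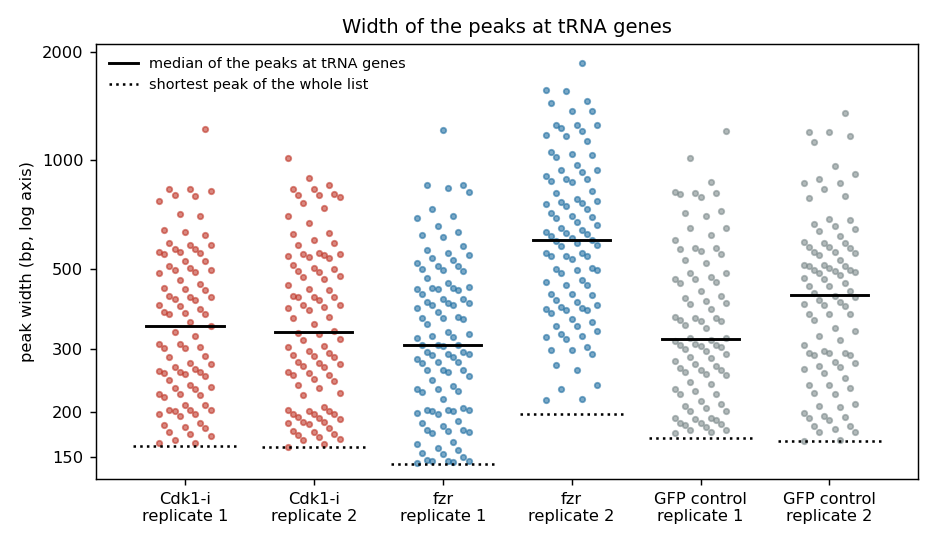
Width of each peak at a tRNA gene (bp, logarithmic vertical axis) in each library, as points, with the median as a solid line and the shortest peak of the whole list as a dotted line. The points of 5 libraries reach down to 144 to 175 bp, and those of the second *fzr* library start at 216 bp, above its shortest peak of 197 bp.

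The shortest length of a list decided some of the calls. Peaks under 197 bp, the longest of the 6 shortest lengths, made up 11.6% and 17.0% of the tRNA peaks in *Cdk1-i* discs, 19.6% and 0% in *fzr* discs, and 14.1% and 11.2% in control discs. Over all peaks these shares were 13.1% and 11.96% in *Cdk1-i* discs, 19.8% and 0% in *fzr* discs, and 10.2% and 9.02% in control discs. Counting only peaks of at least 197 bp took the peak from 11 and 19 genes in *Cdk1-i* discs, 24 and 0 in *fzr* discs, and 13 and 11 in control discs. That left 110 and 110 genes with a peak in *Cdk1-i* discs, 110 and 144 in *fzr* discs, and 102 and 119 in control discs. In all, 78 of 773 pairs of gene and library lost their peak, at 43 genes, and the genes in all 6 lists became 82.

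Genes for the machinery that serves tRNA genes are protein-coding genes, of which 18.5% had a peak at the 5′ end in all 6 lists and 58.4% in none. Of 17 genes for RNA polymerase III subunits, its initiation factors and its repressor Maf1, 2 had a peak in all 6 lists, 3 in 1 to 5 and 12 in none. The 2 were *Polr3D*, a subunit of the enzyme, at percentiles of 30.4 and 60.7 in *Cdk1-i* discs, 75.1 and 88.6 in *fzr* discs, and 40.2 and 56.4 in control discs, and *Polr1D*, a subunit shared with RNA polymerase I, at 6.76 to 36.0. Both *fzr* libraries were above both control libraries at *Polr3D*, as they were at 8.21% of the 2581 coding 5′ ends with a peak in all 6 lists. Of 18 genes for cytoplasmic aminoacyl-tRNA synthetases, which load tRNAs with amino acids, 2 had a peak in all 6 lists, 7 in 1 to 5 and 9 in none. Both lists are short and were not tested against coding genes at large. *ArgRS* stood at 95.8 and 97.1 in *Cdk1-i* discs, 97.01 and 98.5 in *fzr* discs, and 98.5 and 98.2 in control discs, while only 2 of the 26 arginine tRNA genes had a peak in all 6 lists. *AsnRS* stood at 60.9 and 61.03 in *Cdk1-i* discs, 46.5 and 50.9 in *fzr* discs, and 71.9 and 64.3 in control discs. Both tested genotypes were thus below both control libraries. Of the 2581 coding 5′ ends, 20.9% were below both in *Cdk1-i* discs and 26.4% in *fzr* discs.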

How the data were processed

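Each library was sequenced as paired reads of 50 bases. According to the methods of the study, alignment to dm6 used BWA-MEM within nf-core/atacseq, blacklisted regions were filtered out, and MACS2 called the peaks, which are deposited as 1 list per library. Each deposited peak carries a fold enrichment (a ratio to the local background), a −log10 p, a −log10 q and the offset of its summit. The cutoff of the peak calling is not given in the sources used here, and the lowest −log10 q per list was 2.00 to 2.16. The authors' DESeq2 analysis of read counts was not used.

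Peaks were assigned to genes of the Ensembl annotation of this assembly. Fold enrichment was used only as a percentile within its own list. Background windows were 473 bp long, the length of the median tRNA gene with both flanks of 200 bp. Genotypes were compared by exact permutation tests over libraries, and measures within a library by exact permutation of signs, with p-values adjusted over 10 tests. The libraries of a genotype are biological replicates according to the study. The members and the gene lists were chosen with earlier results of these data known. Genes named were the 5 with the highest mean percentile, up to 5 gained and up to 5 lost per genotype, the 3 largest clusters, the 5 largest changes in mean percentile per comparison, and the initiator and selenocysteine genes. The sixth gene gained in *fzr* discs and the copies of tRNA:Asp-GTC-1, tRNA:Val-CAC-2 and tRNA:Pro-TGG-1 were named outside this rule, after their values had been seen. The code was tested on simulated lists of 1680 windows, with 200 planted as gained and 200 as lost, all of which it recovered. Unplanted windows that met either rule by chance had been changed beforehand. The 0 windows called in error thus check the code only and give no rate of false calls. Alternatives were a −log10 q of at least 5, equal numbers of peaks, peaks of at least 197 bp, flanks of 0 and 500 bp, at least 0.5 of the gene covered, windows with at least 90% unique words, genes away from coding 5′ ends, no X chromosome, no pseudogenes, 1 value per cluster, other cluster distances, rank by −log10 p, each library left out, exchanged labels and a replicate block. The work used SciPy 1.17.1 and NumPy 2.4.6 under Python 3.11.15, with Matplotlib 3.10.9 for the plots.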

Additional observations from a re-analysis of the deposited data

How the results depend on the processing

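The difference between tRNA genes and coding 5′ ends kept its sign under every alternative run. With all libraries kept it was 10.3 to 20.8 points, leaving aside the rule of at least 0.5 covered. That rule gave 22.2 points but was unlike for the 2 sides. It asked for 0.5 of the gene at tRNA genes and 0.5 of the whole window at coding 5′ ends. The share of isolated genes was also lower under every alternative. The difference ran from −15.5 points with neighbours within 5 kb to −4.96 points with a flank of 500 bp. This leaves aside 1 value per cluster (−28.7 points), where a peak at any member counts and clusters must score higher. With all 6 libraries each difference kept the smallest exact p possible, while 5 libraries cannot go below 0.0625. Leaving out 1 library gave 14.0 to 15.4 points for the first, −11.5 to −10.2 points for the second and −8.76 to −7.84 for the rank of isolated genes. That rank difference was −1.52 (exact p = 0.406) with at least 0.5 of the gene covered and −3.60 (exact p = 0.0625) with the summit in the window, an alternative chosen after seeing the data. It was −15.2 with a flank of 500 bp, −4.14 with neighbours within 1 kb and −5.07 within 5 kb. The width difference of isolated genes was −22.8 bp with a flank of 500 bp and −2.25 bp with neighbours within 5 kb.

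The difference in share between *Cdk1-i* and control discs was −0.169 points with peaks of at least 197 bp, and −1.69 to 3.39 points with 1 library left out. That between *fzr* and control discs was 3.05 to 8.14 points with 1 library left out, 3.56 points with a flank of 500 bp and 3.22 points with the summit in the window. With at least 0.5 of the gene covered the differences were 3.56 points for *Cdk1-i* and 9.32 points for *fzr*. The rank difference of *Cdk1-i* was −0.281 with at least 0.5 of the gene covered, −0.216 with unique windows and −0.156 to 1.59 with 1 library left out. That of *fzr* was −0.474 with a −log10 q of at least 5, −1.07 with a flank of 500 bp, −0.777 with unique windows, −0.264 without pseudogenes, −1.02 with 1 value per cluster and −1.56 to 1.24 with 1 library left out. Width differences ran from −83.25 to 21.75 bp for *Cdk1-i* and from −63.5 to 228.5 bp for *fzr* with 1 library left out.

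Genes gained in *Cdk1-i* discs numbered 6 with at least 0.5 of the gene covered, 5 with the summit in the window and 3 to 11 with 1 library left out. Genes lost there numbered 2 with equal numbers of peaks, 2 with the gene alone, 0 with a flank of 500 bp, 0 with 1 value per cluster, 4 with the summit in the window and 1 to 8 with 1 library left out. Genes gained in *fzr* discs numbered 3 with the gene alone, 11 with at least 0.5 of the gene covered, 3 with 1 value per cluster and 6 to 20 with 1 library left out. Genes lost there numbered 0 with equal numbers of peaks, 0 with peaks of at least 197 bp, 2 with the gene alone, 2 with a flank of 500 bp, 2 with at least 0.5 of the gene covered, 3 with the summit in the window and 1 to 10 with 1 library left out. With exchanged labels, 6 genes were gained in *Cdk1-i* and 3 in *fzr* discs, and the differences were 5.59 and 0.847 points in share and 82.5 and −30.75 bp in width. The cause of these shifts was not tested. The shares gained and lost among coding 5′ ends, merged intervals and tiled windows were not counted under these alternatives.

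The replicate numbers are shared between groups, and deviations of same-numbered libraries correlated at 0.206, 0.206 and 0.311 over the 295 genes, but no label says what a number marks. A replicate block over the 2 numbers left the share difference of *fzr* at 5.59 points (exact p = 0.5, the smallest it allows) and changed no call. Depth is unknown, so a missing peak is not evidence of closed chromatin.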

Other observations

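Other short RNA genes were counted with the same window. The larger sets had peaks less often than tRNA genes in every library, and some of the sets of 1 to 3 genes had them more often. The 257 snoRNA genes, most of which are processed from introns, had a peak in 10.5% to 13.2% per library, and 20 of them in all 6 lists. The 21 genes for U1, U2, U4 and U5, which RNA polymerase II transcribes, had a peak in 19.0% to 28.6%. Among other genes of RNA polymerase III, the 7SK genes both had a peak in each *Cdk1-i* and each *fzr* library, and 1 of the 2 had one in each control library, a share above that of tRNA genes in all 6 lists. The median percentile of the 7SK peaks was 82.0 and 83.3 in *Cdk1-i* discs, 74.98 and 72.7 in *fzr* discs, and 79.1 and 53.6 in control discs. The 3 U6 genes had a peak at 0 to 2 genes per library, the 2 7SL genes and the RNase P RNA gene at none, and the 96 annotated copies of 5S rRNA at none. The RNase MRP gene had one in 5 of 6 lists. The share of unique words was counted only at tRNA genes and coding 5′ ends. It is therefore unknown for these sets, and with it whether reads could be assigned to single copies, such as those of 5S rRNA. Most of these sets are small, and no test was made.

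The letters TTTGG were searched in the 50 bases before each gene after they had been noticed there. On the strand of the gene they were present at 31 of 96 genes with a peak in all 6 lists (32.3%), at 9 of 69 genes in 1 to 5 lists (13.0%) and at 22 of 130 genes in no list (16.9%), against 9.09% of coding 5′ ends. On either strand the shares were 38.5%, 14.5% and 23.8%, against 15.7%. The median match started 22 bases before the gene, and 49 of 62 genes with a match had it 30 to 20 bases before. Among genes of the 27 identical sets with both kinds of copy, 17 of 61 copies in all 6 lists had the letters (27.9%), and 12 of 84 copies in none (14.3%). Copies of a cluster can share their flanks, the letters were chosen from these data, and the difference was not tested.

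By chromosome arm, 26.9% to 42.3% of the 26 tRNA genes on X and 29.3% to 43.9% of the 41 on 2L had a peak per library. The ranges were 38.8% to 51% for the 49 genes on 3L, 42% to 51% for the 100 on 2R and 43.0% to 49.4% for the 79 on 3R, and no test was made.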
